A study of Bos taurus with 12 samples.

Results

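Heat shock proteins and their partner chaperones were followed across the right ventricle of 12 Angus steers that differed in pulmonary arterial pressure (PAP). The members were taken by gene symbol from a list of 40 genes, which was chosen with earlier results of these data known. Of these, 39 were symbols in the deposited table of 24616 genes (HSPA2 was not), and 38 passed the filter on low values, among 11374 genes in all. HSPA4L was the member that did not pass, with 3 to 17 reads per library. The list holds 7 small heat shock proteins, 7 HSP70 proteins, 3 HSP110 proteins, 3 HSP90 proteins, 6 HSP90 co-chaperones, 8 J-domain proteins, 2 BAG co-chaperones, 2 mitochondrial chaperonins and 2 heat shock factors. Most of these proteins work in the cytosol, but the products of HSPA9, HSPD1, HSPE1, TRAP1 and DNAJA3 are known from mitochondria, and that of HSPA13 from microsomes.

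Chaperones keep proteins folded. Small heat shock proteins hold unfolding proteins without using ATP, and in heart muscle they bind desmin, titin and actin. HSP70 takes up unfolded stretches in cycles driven by J-domain proteins, which deliver clients, and by HSP110 and BAG proteins, which release nucleotide. HSP90 then finishes kinases and steroid receptors together with its co-chaperones, and the heat shock factors switch on many of these genes when proteins unfold.

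The steers were castrated male calves raised at 2170 m (7120 ft), under the low oxygen of that altitude, and slaughter was at an age of 13 to 15 months. Repeated right heart catheterization and clinical signs placed them in 3 groups: 6 animals with low PAP, 3 hypertensive animals that showed no heart failure (PH-healthy) and 3 hypertensive animals in right heart failure (PH-failure). All are labelled wild type, all shared the exposure to altitude, no low-altitude animals were analysed here, and each library came from a different animal. Levels are RPKM (reads normalized to exon length and mapped reads, so levels of different genes can be compared), and group values are mean ± SD.

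The libraries held 14739237 (PH-failure 1) to 31090198 (low PAP 5) mapped reads, as recovered from the RPKM steps, with a median of 370 reads per tested gene. The 10 cardiomyocyte markers all passed the filter and summed to 57784 to 76288 RPKM in low PAP, 67430 to 73698 in PH-healthy and 43833 to 72857 in PH-failure. PH-failure 3 stood apart from all other libraries on the second principal component, at 37.2 against -12.1 to 5.70. Per the file headers, libraries came in 2 series run in lanes 4 and 5, and each group had animals in both.

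Both PH groups had more chaperone genes called above low PAP than below it, led by small heat shock proteins, HSP90AB1, HSPA4 and DNAJA4, although with median-ratio scaling the numbers in PH-failure were equal. Against low PAP, 11 of 38 members (28.9%) were higher and 2 were lower in PH-failure at a limma Benjamini-Hochberg adjusted p under 0.05. Of all tested genes, 28.0% were higher and 5.79% lower in that comparison, so the members' share was near the background. In PH-healthy, 14 members (36.8%) were higher and 2 were lower, against 26.6% and 8.15% of all tested genes. The median log2 change of the members was 0.21 in PH-failure and 0.29 in PH-healthy, beside 0.21 and 0.175 over all tested genes. A higher call in both PH groups was made for 10 genes: CRYAB, HSPB1, HSPB6, HSPB7, HSP90AA1, HSP90AB1, HSPA4, HSPA13, DNAJA4 and DNAJB6. HSPA14 was lower in both. The PH comparisons share the 6 low-PAP libraries, so these calls are not independent of each other.

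The balance of higher and lower calls depended on how the libraries were scaled. With each library divided by its median ratio to the others, which brought the median log2 change of all genes to 0.01 and -0.00, 6 members were higher and 6 lower in PH-failure, against 13.5% and 14.8% of all genes. The lower ones were HSPA14, FKBP4, HSPA8, HSPB3, AHSA1 and STIP1. In PH-healthy, 8 were higher and 3 lower, against 16.0% and 16.4%. After quantile normalization, 8 members were higher and 2 lower in PH-failure, against 9.96% and 12.5% of all genes. The same setting gave 10 higher and 1 lower in PH-healthy, against 12.5% and 14.3%. CRYAB, HSPB6, HSPB7, HSP90AB1, HSPA4 and DNAJA4 were higher in both PH groups under every one of these 3 scalings. Without PH-failure 3, 7 members were higher and 1 was lower in PH-failure, against 11.3% and 2.26% of all genes. Within each of the 2 library series, the 13 members called in PH-failure and the 16 called in PH-healthy kept their direction. These genes were chosen on both series together, so this is a description, and series 55 holds 1 PH-failure library and series 56 holds 1 PH-healthy library.

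**Figure D1:**
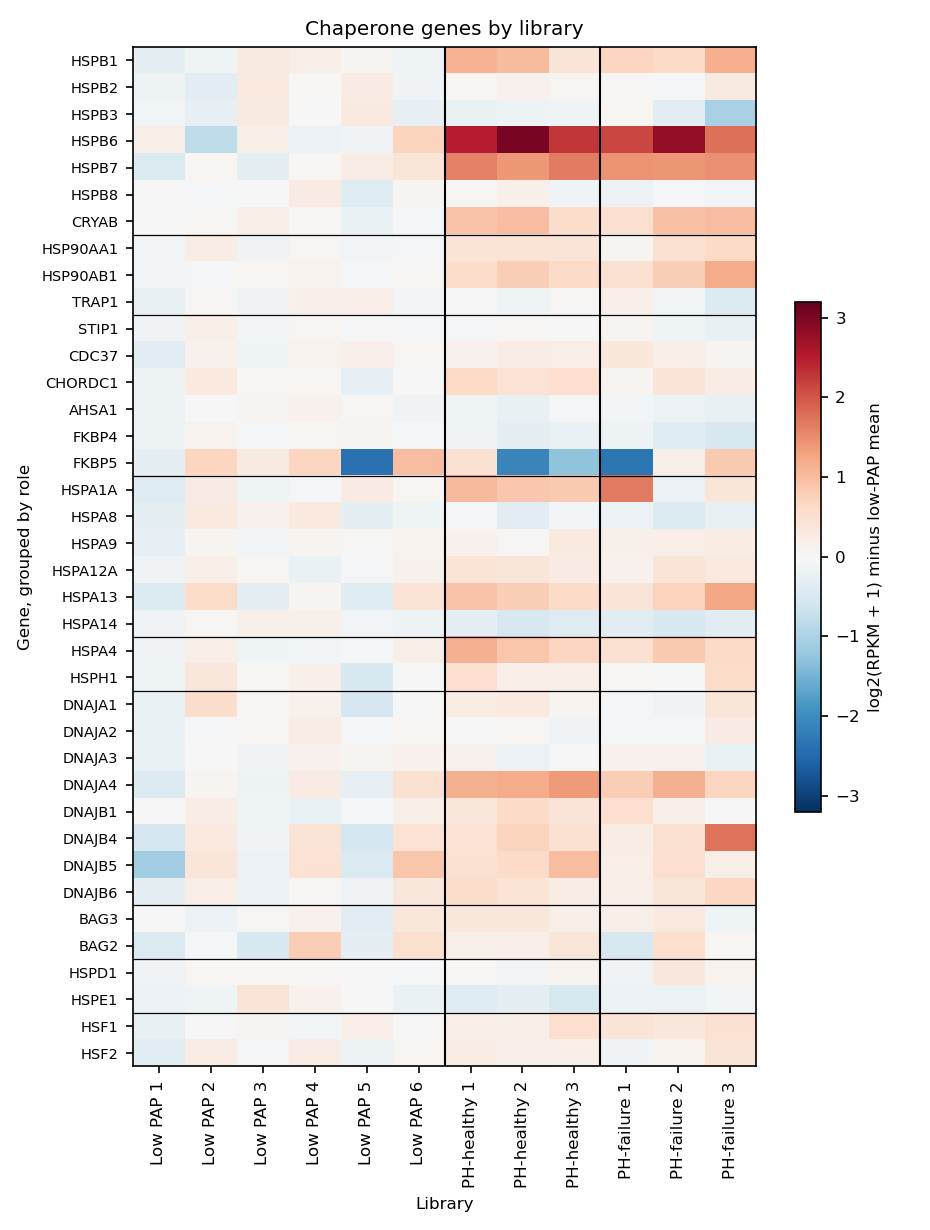
Level of the 38 tested chaperone genes (rows, grouped by role) in each library (columns), as log2(RPKM + 1) minus the mean of the 6 low-PAP libraries; red is higher and blue lower. HSPB6, HSPB7, CRYAB, HSPB1, HSP90AB1, HSPA4 and DNAJA4 were among the members above the low-PAP mean in all 6 PH libraries. Others, such as HSP90AA1 and HSF1, were so too, and the share over all tested genes was not counted. FKBP5 was high in some libraries of each group and low in others.

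**Figure D2:**
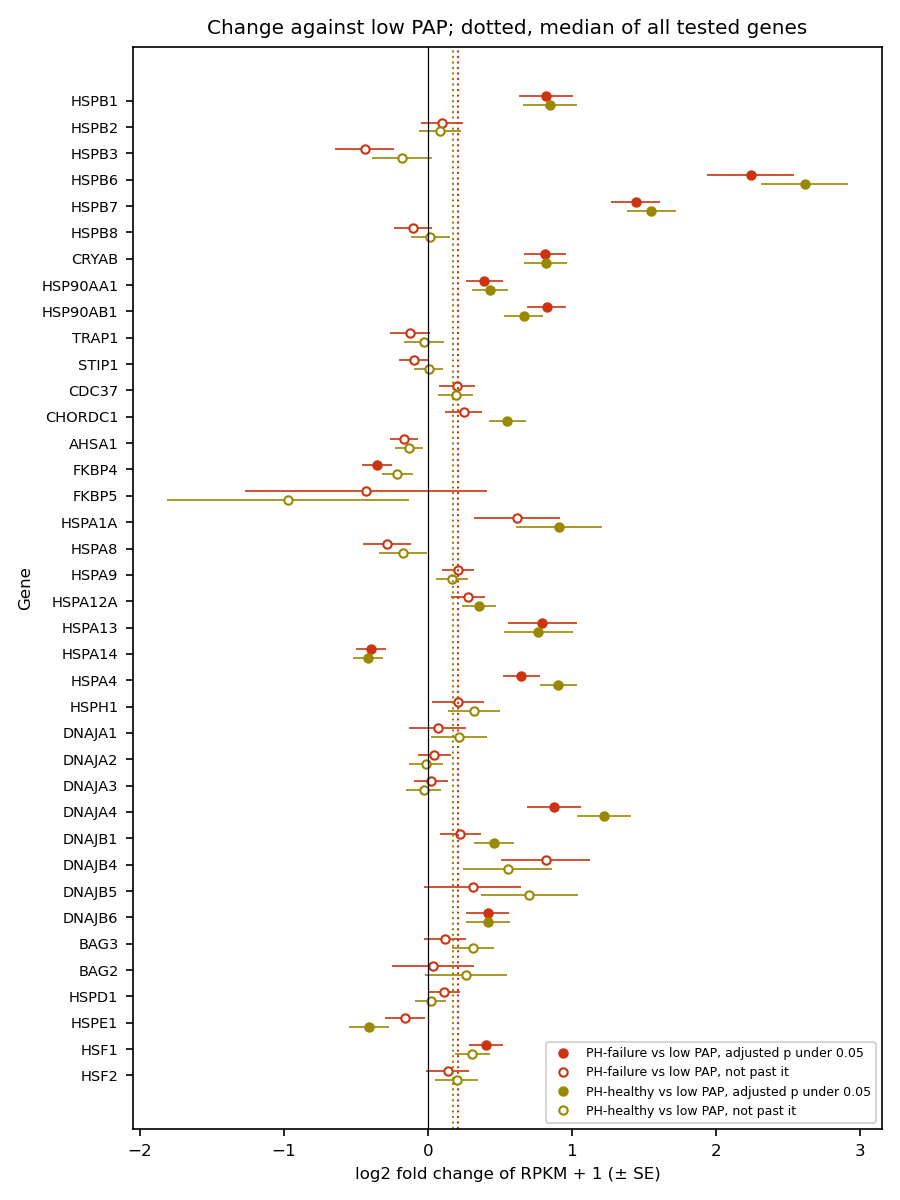
log2 fold change of each tested member against low PAP with its standard error, in PH-failure (red) and PH-healthy (olive); filled circles have a limma adjusted p under 0.05. The dotted lines mark the median of all 11374 tested genes, 0.21 in PH-failure and 0.175 in PH-healthy, and HSPB6 lies farthest to the right at 2.24 and 2.62.

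The largest changes were in the small heat shock proteins, of which 4 of 7 rose in each PH group and none fell, where 28.0% and 26.6% of all tested genes were higher in PH-failure and PH-healthy. The median log2 change of the 7 was 0.82 in both comparisons. HSPB6 (ENSBTAG00000018598, chromosome 18, 46654242 to 46656762), a heart and smooth muscle protein that protein kinase A phosphorylates, ranged from 138 to 401 RPKM in low PAP with a median of 251. It stood at 1396, 2007 and 1203 RPKM in PH-healthy 1 to 3 and at 1076, 1733 and 827 RPKM in PH-failure 1 to 3. The lowest PH library was thus above the highest low-PAP library, with no overlap. For this gene and those below, the share of all tested genes without such overlap was not counted. The group means were 256 ± 87.6 (n = 6), 1535 ± 420 (n = 3) and 1212 ± 468 RPKM (n = 3), a 5.99-fold rise in PH-healthy and a 4.73-fold rise in PH-failure. The log2 change in the limma fit was 2.62 ± 0.30 (SE, limma adjusted p = 0.000207) in PH-healthy and 2.24 ± 0.30 (adjusted p = 0.00092) in PH-failure.

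HSPB7 (chromosome 2, 136635159 to 136637353), a small heat shock protein of heart and skeletal muscle, was tight within the failing hearts. It ranged from 127 to 231 RPKM in low PAP (median 185), and was 544, 459 and 560 RPKM in PH-healthy and 483, 475 and 487 RPKM in PH-failure. Every PH library was above every low-PAP library. On the log2 scale the change was 1.55 ± 0.17 in PH-healthy (adjusted p = 0.000178) and 1.44 ± 0.17 in PH-failure (adjusted p = 0.000423).

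CRYAB (alpha B-crystallin, chromosome 15, 22566928 to 22570256), which protects desmin and titin in cardiomyocytes, was the most abundant member and ranked 23 among all 24616 genes by its low-PAP mean. It ranged from 2929 to 3933 RPKM in low PAP with a median of 3386. PH-healthy libraries had 6370, 6675 and 4971 RPKM, and PH-failure libraries 4844, 6471 and 6711 RPKM. All 6 PH libraries lay above the low-PAP range. The rise was 1.77-fold in each PH group, with a log2 change of 0.82 ± 0.15 in both (adjusted p = 0.00245 in PH-healthy and 0.00316 in PH-failure).

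HSPB1 (HSP27, chromosome 25), which binds actin filaments and damaged sarcomere proteins, ranged from 501 to 753 RPKM in low PAP (median 609). It was at 1334, 1244 and 817 RPKM in PH-healthy and 991, 942 and 1370 RPKM in PH-failure, again without overlap. On the log2 scale it changed by 0.85 ± 0.19 in PH-healthy (adjusted p = 0.00633) and 0.82 ± 0.19 in PH-failure (adjusted p = 0.00864). With median-ratio scaling the PH-failure call was lost (log2 change 0.56, adjusted p = 0.0531).

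The other 3 small heat shock proteins were not called. HSPB2 and HSPB3, which form a complex with each other in muscle, had means of 77.1 ± 14.1 and 246 ± 44.1 RPKM in low PAP. In PH-failure they were at 81.7 ± 9.48 and 188 ± 67.7 RPKM. HSPB3 was lowest in PH-failure 3 (118 RPKM), and without PH-failure 1 (253 RPKM) its log2 change of -0.69 against low PAP passed the threshold (adjusted p = 0.022). HSPB8, which works with BAG3 in the removal of damaged muscle proteins, was at 228 ± 32.7 RPKM in low PAP, 230 ± 22.9 in PH-healthy and 211 ± 11.3 in PH-failure.

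CRYAB and HSPB2 are neighbours on chromosome 15, with 987 bases and no other listed gene between them, yet their levels parted. The ratio of CRYAB to HSPB2 RPKM ranged from 32.0 to 58.1 in low PAP, 62.6 to 80.3 in PH-healthy and 62.1 to 86.7 in PH-failure, with no overlap between low PAP and either PH group. A ratio within a library is not changed by a single scaling factor per library, but quantile normalization can change it. This ratio, and the others below, were picked after their values were seen and were not tested. The 7 small heat shock proteins together made up 59.0 to 64.5% of the members' summed RPKM in low PAP, 71.2 to 77.1% in PH-healthy and 71.1 to 75.5% in PH-failure. Their summed level was 4583 to 5729 RPKM in low PAP against 8055 to 10935 and 7923 to 10110 RPKM in the PH groups. All other members together summed to 2628 to 3459 RPKM in low PAP, 3246 to 3382 in PH-healthy and 3220 to 3662 in PH-failure, so those ranges overlapped.

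Markers of other cell types moved beside these genes. The summed level of 9 fibroblast markers was 610 to 891 RPKM in low PAP, 697 to 1284 in PH-healthy and 987 to 1538 in PH-failure, with 6 of 9 higher in PH-failure and 5 of 9 in PH-healthy. The 8 endothelial markers summed to 87.4 to 149, 144 to 166 and 163 to 243 RPKM, and the 8 macrophage markers to 41.7 to 64.8, 60.1 to 86.8 and 58.1 to 170 RPKM, in the same order. Of the endothelial markers 4 were higher in each PH group, and of the macrophage markers 6 in PH-failure and 3 in PH-healthy. Of the 8 smooth muscle and pericyte markers, 5 were higher and 1 lower in PH-failure, and 3 were higher and 1 lower in PH-healthy. Their sums were 229 to 333, 254 to 282 and 253 to 444 RPKM, so all groups overlapped. The 5 adipocyte markers were not called and summed to 37.0 to 264 RPKM in low PAP, 29.3 to 44.0 in PH-healthy, and 196, 49.4 and 1057 in PH-failure 1 to 3. Of 7 T and NK cell markers, 1 was lower in each PH group. Red cell markers were not called and summed to at most 7.07, 3.77 and 69.0 RPKM in low PAP, PH-healthy and PH-failure. Of 10 cardiomyocyte markers, 1 was higher and 3 lower in PH-failure, and 2 were higher and 1 lower in PH-healthy. After quantile normalization 0 of them were lower in either group. That setting gave 5 fibroblast markers higher in each PH group. It gave 3 endothelial markers higher in PH-failure, and 2 higher and 1 lower in PH-healthy. Of the macrophage markers, it gave 2 higher in PH-failure and 0 in PH-healthy. For smooth muscle and pericyte markers it gave 4 higher and 1 lower in PH-failure, and 2 and 1 in PH-healthy. It gave 3 T and NK cell markers lower in PH-failure, and 1 adipocyte marker lower in PH-healthy. Of all tested genes in the main setting, 28.0% were higher and 5.79% lower in PH-failure. In PH-healthy these were 26.6% and 8.15%. The part of these shifts in the chaperone results was not tested. In bulk tissue, fewer cells of a type and less RNA per cell cannot be told apart.

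**Figure D3:**
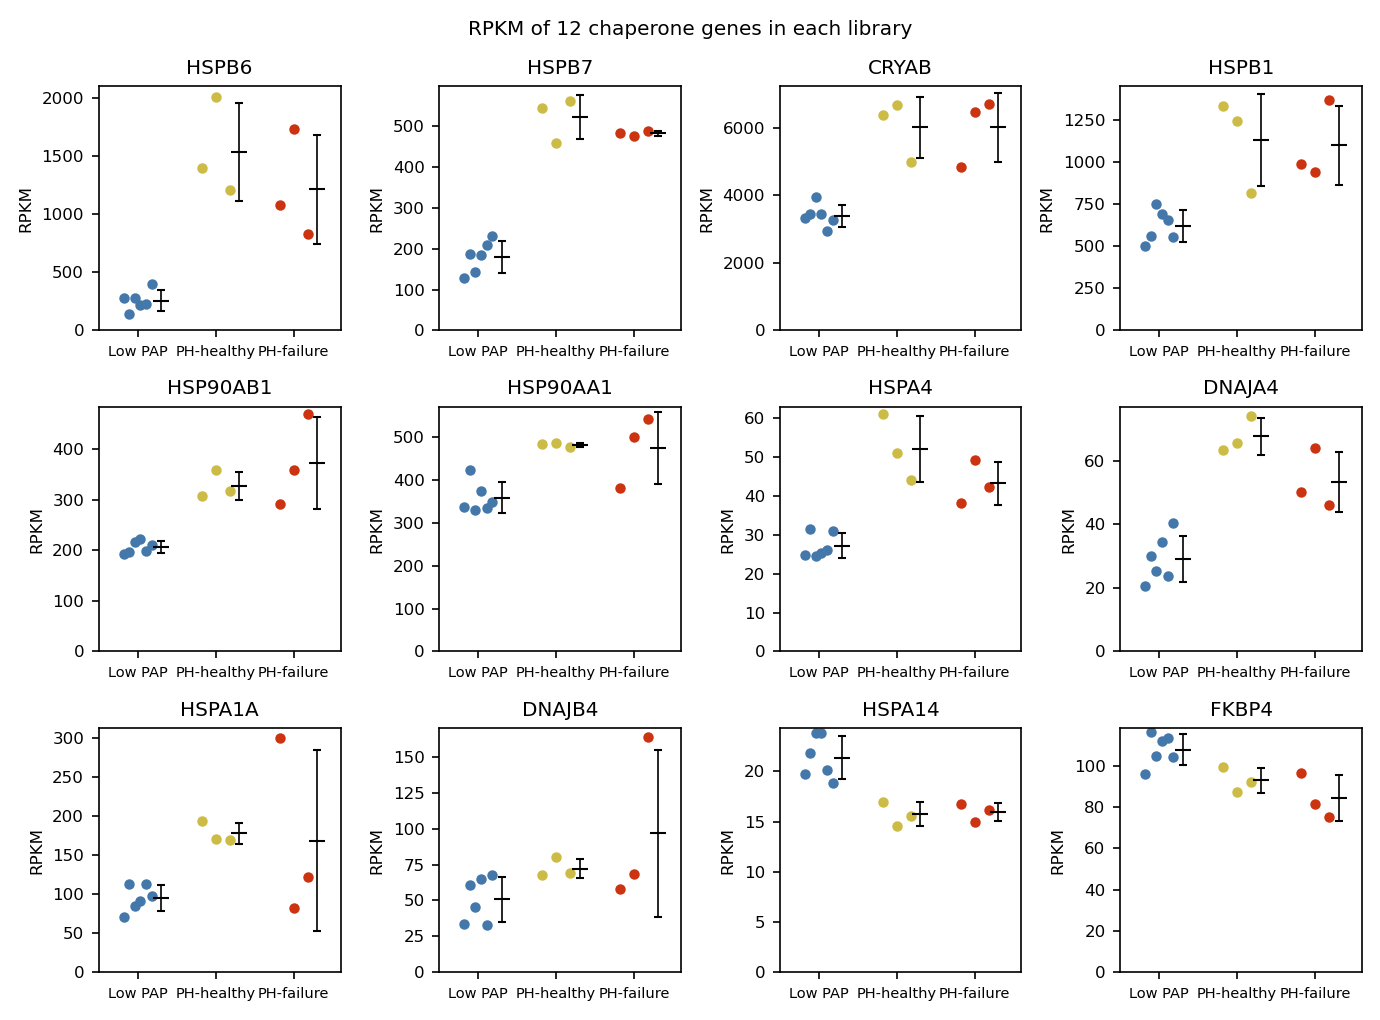
RPKM of 12 chaperone genes in every library (points) with the group mean and SD (black) for low PAP (6), PH-healthy (3) and PH-failure (3); axes start at 0. HSPB6, HSPB7, CRYAB, HSPB1, HSP90AB1, HSPA4 and DNAJA4 are higher in PH than in low PAP with no overlap, and HSPA14 is lower with none. The share of all tested genes without such overlap was not counted. PH-failure libraries are spread from 82.7 to 300 RPKM for HSPA1A, with 1 high library for DNAJB4.

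Among the HSP90 proteins, the cytosolic pair rose in both PH groups and mitochondrial TRAP1 was not called. HSP90AB1 (chromosome 23), the constitutive form, lay between 193 and 223 RPKM in low PAP with a median of 205. PH-healthy libraries had 307, 359 and 318 RPKM, and PH-failure libraries 291, 359 and 470 RPKM. No PH library reached down to the low-PAP range. The log2 change was 0.67 ± 0.14 in PH-healthy (adjusted p = 0.00438) and 0.83 ± 0.14 in PH-failure (adjusted p = 0.00206). A second row of the same symbol (ENSBTAG00000047699, chromosome X) had 0.0746 to 0.0896 of its level in every library and rose too, by a log2 change of 0.75 and 0.94 (adjusted p = 0.00192 and 0.001). The sources used here do not say how reads that match several copies were assigned, so the split between these rows is uncertain.

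HSP90AA1 (chromosome 21), the form that heat induces, rose less. It ranged from 331 to 424 RPKM in low PAP (median 343), was 484, 486 and 477 RPKM in PH-healthy, and was 381, 501 and 542 RPKM in PH-failure. PH-healthy did not overlap low PAP, while PH-failure 1 lay inside the low-PAP range. Its log2 change was 0.43 ± 0.13 (adjusted p = 0.022) and 0.39 ± 0.13 (adjusted p = 0.0331). These calls were lost in several settings. That in PH-failure was lost without PH-failure 2, PH-failure 3 or low PAP 1, 3 or 5 (adjusted p = 0.0593 to 0.142), and that in PH-healthy without any 1 of its 3 libraries (0.063 to 0.0754). Both were lost with median-ratio scaling (log2 change 0.14 and 0.21). The ratio of HSP90AB1 to HSP90AA1 was 0.465 to 0.653 in low PAP, 0.635 to 0.739 in PH-healthy and 0.715 to 0.866 in PH-failure, so only PH-failure lay wholly above low PAP. TRAP1 was at 25.1 ± 3.15 RPKM in low PAP, 24.5 ± 1.77 in PH-healthy and 23.2 ± 5.01 in PH-failure.

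Of the 6 HSP90 co-chaperones, 1 fell in PH-failure and 1 rose in PH-healthy. FKBP4, a peptidyl-prolyl isomerase of steroid receptor complexes, ranged from 96.0 to 116 RPKM in low PAP (median 108), and was 99.4, 87.1 and 92.3 RPKM in PH-healthy and 96.7, 81.6 and 75.3 RPKM in PH-failure. It fell by 0.35 ± 0.11 on the log2 scale in PH-failure (adjusted p = 0.0247), with PH-failure 1 just inside the low-PAP range. That call was lost without PH-failure 2 or PH-failure 3 (adjusted p = 0.0766 to 0.11). In PH-healthy the log2 change of -0.21 did not pass (adjusted p = 0.134), but it did with median-ratio scaling (-0.43, adjusted p = 0.0176).

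CHORDC1, a zinc-binding HSP90 co-chaperone, rose in PH-healthy. It ranged from 11.4 to 17.7 RPKM in low PAP (median 14.2), and was 22.4, 19.7 and 20.7 RPKM in PH-healthy and 14.9, 19.0 and 16.5 RPKM in PH-failure. PH-healthy lay above both other groups with no overlap. The log2 change from low PAP was 0.55 ± 0.13 in PH-healthy (adjusted p = 0.0084; 0.0537 with median-ratio scaling) and 0.25 ± 0.13 in PH-failure (adjusted p = 0.147). STIP1, which passes clients from HSP70 to HSP90, was at 42.4 ± 3.70, 42.4 ± 0.915 and 39.5 ± 4.63 RPKM in low PAP, PH-healthy and PH-failure. CDC37, which brings kinases to HSP90, was at 27.9 ± 3.76, 31.8 ± 1.20 and 32.1 ± 2.89 RPKM in that order. AHSA1, which speeds up the ATPase of HSP90, was at 84.5 ± 6.91, 77.0 ± 5.27 and 75.0 ± 3.59 RPKM. With median-ratio scaling, AHSA1 and STIP1 were lower in PH-failure (log2 change -0.42 and -0.35, limma adjusted p = 0.0288 and 0.0306).

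FKBP5, the co-chaperone that glucocorticoids induce, had the widest spread in low PAP of all tested members. It read 56, 112, 84.3, 111, 12.3 and 137 RPKM in low PAP 1 to 6, then 97.2, 15.0 and 27.4 RPKM in PH-healthy and 13.0, 78.5 and 123 RPKM in PH-failure. Each group thus held at least 1 library near 12 to 15 RPKM and 1 near 100 RPKM or above, an 11.2-fold range over all 12. Its coefficient of variation in low PAP was 53.0%, against a median of 16.2% for the tested members and 18.6% for all tested genes. Neither PH comparison passed the threshold (adjusted p = 0.708 in PH-failure and 0.385 in PH-healthy). ZBTB16, another glucocorticoid-responsive gene, ranged 10.8-fold, with its lowest levels of 1.51 and 1.78 RPKM in low PAP 5 and PH-healthy 2. Those libraries were also low for FKBP5, at 12.3 and 15.0 RPKM. PH-failure 1, at 13.0 RPKM for FKBP5, had 4.26 RPKM of ZBTB16. ZBTB16 was picked after its values were seen. Like FKBP5, TSC22D3 was lowest in low PAP 5 (11.1 RPKM) and highest in low PAP 6 (24.7 RPKM). PER1 was lowest in PH-failure 1 (6.44 RPKM) and highest in low PAP 6 (17.9 RPKM). Low PAP 3, at 84.3 RPKM for FKBP5, was low for both, at 11.4 and 6.86 RPKM. How far these genes follow FKBP5 was not tested, and others, among them KLF9, SGK1 and DUSP1, departed from it in some libraries. KLF9 was 15.2 RPKM in PH-healthy 3, at 27.4 RPKM for FKBP5, and lowest in low PAP 3 at 6.64 RPKM. SGK1 was 10.7 RPKM in PH-failure 1, its second highest library, and DUSP1 was 40.4 RPKM there and 33.9 RPKM in low PAP 5, against 14.3 to 54.3 RPKM over all libraries. Of 9 tested glucocorticoid-responsive genes, 0 were called in any comparison with limma (0 higher and 1 lower in each PH group after quantile normalization).

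**Figure D4:**
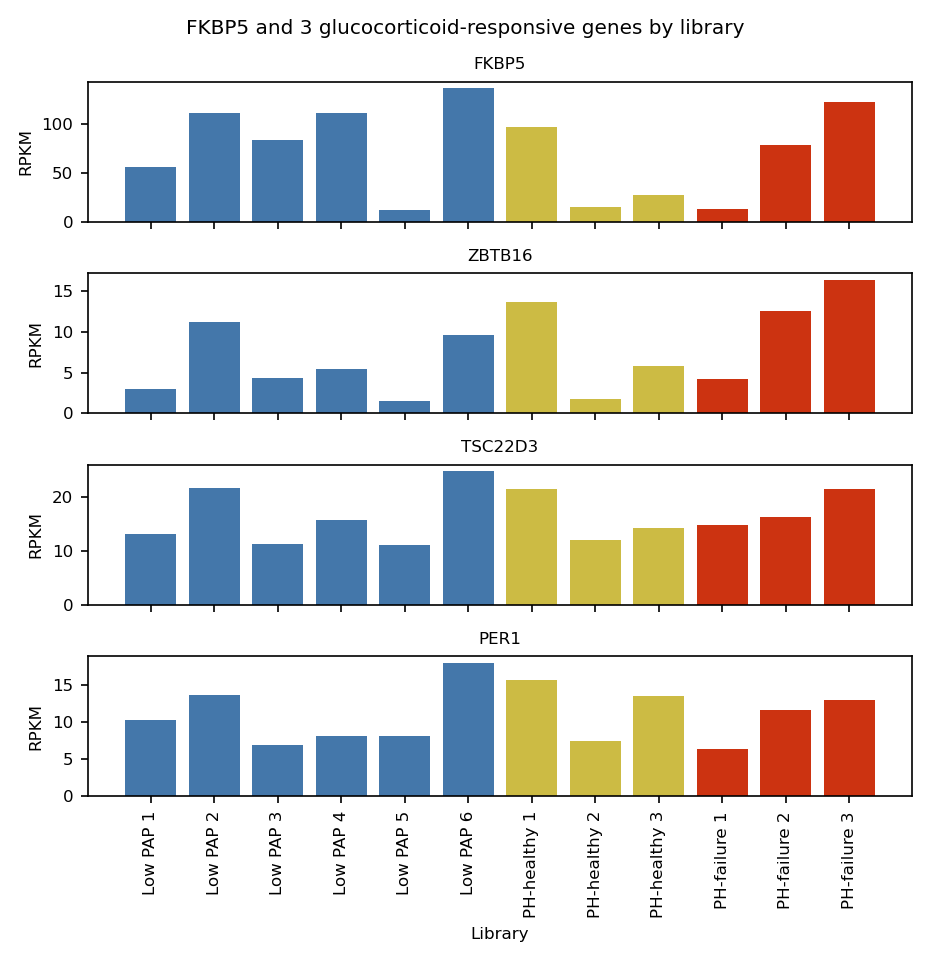
RPKM of FKBP5 and of the glucocorticoid-responsive genes ZBTB16, TSC22D3 and PER1 in each library; bar colour gives the group (blue low PAP, yellow PH-healthy, red PH-failure), and axes start at 0. FKBP5 is near 12 to 15 RPKM in low PAP 5, PH-healthy 2 and PH-failure 1 and highest in low PAP 6 at 137 RPKM.

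In the HSP70 system, the exchange factor HSPA4 rose in both PH groups, while HSPA8 was not called. HSPA4 (chromosome 7), an HSP110 protein, ranged from 24.6 to 31.6 RPKM in low PAP (median 25.6). It was 61.0, 51.0 and 44.0 RPKM in PH-healthy and 38.3, 49.2 and 42.2 RPKM in PH-failure, all above low PAP. The log2 change was 0.91 ± 0.13 in PH-healthy (adjusted p = 0.000776) and 0.65 ± 0.13 in PH-failure (adjusted p = 0.00515). HSPH1, the HSP110 protein that heat induces most, was low and not called, at 7.78 ± 1.68, 9.84 ± 1.52 and 9.16 ± 2.35 RPKM in low PAP, PH-healthy and PH-failure.

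HSPA8 (HSC70, chromosome 15), the constitutive HSP70, ranged from 422 to 658 RPKM in low PAP with a median of 528. PH-healthy libraries had 506, 412 and 496 RPKM, and PH-failure libraries 467, 392 and 447 RPKM. The groups overlapped, and the log2 changes of -0.17 and -0.28 did not pass (adjusted p = 0.436 and 0.19). With median-ratio scaling HSPA8 was lower in PH-failure (-0.54, adjusted p = 0.0398).

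HSPA1A (chromosome 23), the HSP70 that stress induces, rose in PH-healthy and was uneven in PH-failure. It ranged from 70.3 to 113 RPKM in low PAP (median 94.6) and was 193, 170 and 169 RPKM in PH-healthy, with no overlap. In PH-failure it was 300 RPKM in replicate 1 but 82.7 and 122 RPKM in replicates 2 and 3, which put 1 failing heart inside the low-PAP range. The log2 change was 0.91 ± 0.30 in PH-healthy (adjusted p = 0.0323) and 0.62 ± 0.30 in PH-failure (adjusted p = 0.117). The PH-healthy call was lost without any 1 of its libraries or without low PAP 1, 3 or 4 (adjusted p = 0.0557 to 0.108), and with median-ratio scaling (0.0801). Without PH-failure 2 the PH-failure change of 1.02 passed (adjusted p = 0.0264). Near-identical copies of this gene are known, and the counting of reads they share is not stated, so the level of this single row is uncertain.

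HSPA13, a microsomal HSP70, and HSPA12A, a distant relative, were low. HSPA13 ranged from 4.28 to 9.61 RPKM in low PAP (median 5.69) and was 12.4, 11.2 and 9.77 RPKM in PH-healthy and 8.48, 10.8 and 15.7 RPKM in PH-failure. Its log2 change was 0.77 ± 0.24 (adjusted p = 0.0274) and 0.80 ± 0.24 (adjusted p = 0.0251). The PH-failure call was lost with median-ratio scaling (adjusted p = 0.0553). Both calls were lost after quantile normalization (0.0644 and 0.0679) and without single libraries: any of the 3 in PH-healthy or low PAP 1, 3 or 5 for the first (0.0506 to 0.104), and PH-failure 2, PH-failure 3 or low PAP 3 for the second (0.0515 to 0.131).

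HSPA12A ranged from 0.490 to 0.991 RPKM in low PAP and was 1.33, 1.26 and 1.08 RPKM in PH-healthy and 0.906, 1.31 and 1.14 RPKM in PH-failure. It was called higher in PH-healthy alone (log2 change 0.35 ± 0.12, adjusted p = 0.0339; 0.0769 in PH-failure). With so few reads, adding 1 RPKM before taking logs understates its change. The call in PH-healthy was lost without any 1 of its 3 libraries or low PAP 1, 3, 4 or 5 (0.0531 to 0.125), after quantile normalization (0.473) and with median-ratio scaling (0.0878). In PH-failure it passed without low PAP 2 (adjusted p = 0.0484).

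HSPA14, an HSP70 that sits on ribosomes and helps new chains fold, was the member that fell in both PH groups. It ranged from 18.8 to 23.8 RPKM in low PAP (median 21.0), and was 16.98, 14.6 and 15.6 RPKM in PH-healthy and 16.7, 15.0 and 16.2 RPKM in PH-failure. Every PH library was below every low-PAP library. It fell by 0.42 ± 0.10 on the log2 scale in PH-healthy (adjusted p = 0.0114) and by 0.39 ± 0.10 in PH-failure (adjusted p = 0.0158). The calls were lost without PH-healthy 2 (adjusted p = 0.0546) and without PH-failure 2 (0.0608), respectively. HSPA9, the mitochondrial HSP70, was not called, at 175 ± 17.1, 197 ± 20.0 and 202 ± 6.05 RPKM.

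Of the 8 J-domain proteins, which hand clients to HSP70, 2 rose in PH-failure and 3 in PH-healthy, and none fell. With 28.0% and 26.6% of all tested genes higher, these counts are near the background. DNAJA4 (chromosome 21) ranged from 20.5 to 40.4 RPKM in low PAP (median 27.7), and was 63.3, 65.6 and 74.2 RPKM in PH-healthy and 50.1, 63.9 and 46.1 RPKM in PH-failure. No PH library overlapped low PAP. DNAJA4 had a log2 change of 1.22 ± 0.19 in PH-healthy (adjusted p = 0.00109) and 0.88 ± 0.19 in PH-failure (adjusted p = 0.00647). DNAJB6, which keeps proteins from aggregating and is mutated in a human limb-girdle muscular dystrophy, ranged from 26.1 to 41.2 RPKM in low PAP. It was 48.0, 43.9 and 38.1 RPKM in PH-healthy and 37.5, 41.9 and 50.9 RPKM in PH-failure, so both PH groups overlapped low PAP.

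DNAJB6 passed only narrowly, with a log2 change of 0.42 ± 0.15 in PH-healthy (adjusted p = 0.0475) and 0.41 ± 0.15 in PH-failure (adjusted p = 0.0495). Its call in PH-failure was lost without PH-failure 2 or 3, any 1 PH-healthy library or low PAP 1, 3, 4 or 5 (adjusted p = 0.0557 to 0.209). Its call in PH-healthy was lost without PH-failure 2, any 1 PH-healthy library or the same low-PAP libraries (0.0582 to 0.183). Both were lost after quantile normalization (0.0891 and 0.0547) and with median-ratio scaling (0.322 and 0.219). DNAJB1 (HSP40), the J-domain protein most induced by heat, ranged from 13.96 to 19.7 RPKM in low PAP and was 21.4, 25.5 and 22.3 RPKM in PH-healthy and 24.4, 18.4 and 16.2 RPKM in PH-failure. As for HSPA1A, every PH-healthy library was above low PAP, and PH-failure 1 was the highest of the failing hearts. The log2 change was 0.46 ± 0.14 in PH-healthy (adjusted p = 0.0258) and 0.23 ± 0.14 in PH-failure (adjusted p = 0.219). The first was lost without any 1 PH-healthy library or low PAP 3 or 4 (0.0517 to 0.107), after quantile normalization (0.0853) and with median-ratio scaling (0.141).

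DNAJB4 was not called, but PH-failure 3 had 163 RPKM, beside 32.7 to 67.7 RPKM in low PAP, 67.7 to 80.0 in PH-healthy and 58.1 and 68.3 in the other failing hearts. Its log2 change in PH-failure was 0.82 ± 0.31 (adjusted p = 0.0577), and it passed without PH-failure 1 or low PAP 6 (0.0248 to 0.037). DNAJB5 varied widely within low PAP, from 10.2 to 43.4 RPKM, and passed in PH-healthy only without low PAP 6 (log2 change 0.88, adjusted p = 0.0342). DNAJA1, DNAJA2 and mitochondrial DNAJA3 had log2 changes between -0.03 and 0.22 in both comparisons, none of them called.

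The BAG proteins were not called. BAG3, the HSP70 exchange factor that hearts need for sarcomere upkeep, ranged from 30.3 to 49.6 RPKM in low PAP (median 39.1), and was 50.4, 50.4 and 44.4 RPKM in PH-healthy and 44.0, 47.9 and 35.2 RPKM in PH-failure. The groups overlapped, with a log2 change of 0.31 ± 0.15 in PH-healthy (adjusted p = 0.112) that passed without low PAP 6 (adjusted p = 0.0374) and of 0.12 ± 0.15 in PH-failure (adjusted p = 0.546). BAG2 ranged from 31.5 to 78.3 RPKM over all libraries with no order by group.

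The mitochondrial chaperonin HSPD1 (HSP60) and its lid HSPE1 (HSP10) lie 151 bases apart on chromosome 2. HSPD1 was at 98.2 ± 4.67 RPKM in low PAP, 99.6 ± 6.77 in PH-healthy and 107 ± 17.1 in PH-failure. HSPE1 ranged from 617 to 946 RPKM in low PAP (median 677), and was 532, 582 and 501 RPKM in PH-healthy and 621, 625 and 666 RPKM in PH-failure. PH-healthy was thus below both other groups. HSPE1 fell by 0.41 ± 0.14 on the log2 scale in PH-healthy (adjusted p = 0.0395), and its change of -0.16 in PH-failure did not pass (adjusted p = 0.382). The call was lost after quantile normalization, where the log2 change was -0.00 (adjusted p = 0.993), and without any 1 PH-healthy library or low PAP 3, 4 or 5 (0.0589 to 0.136). The ratio of HSPE1 to HSPD1 was 6.36 to 9.38 in low PAP, 4.75 to 6.31 in PH-healthy and 5.02 to 6.88 in PH-failure, with overlap for PH-failure.

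**Figure D5:**
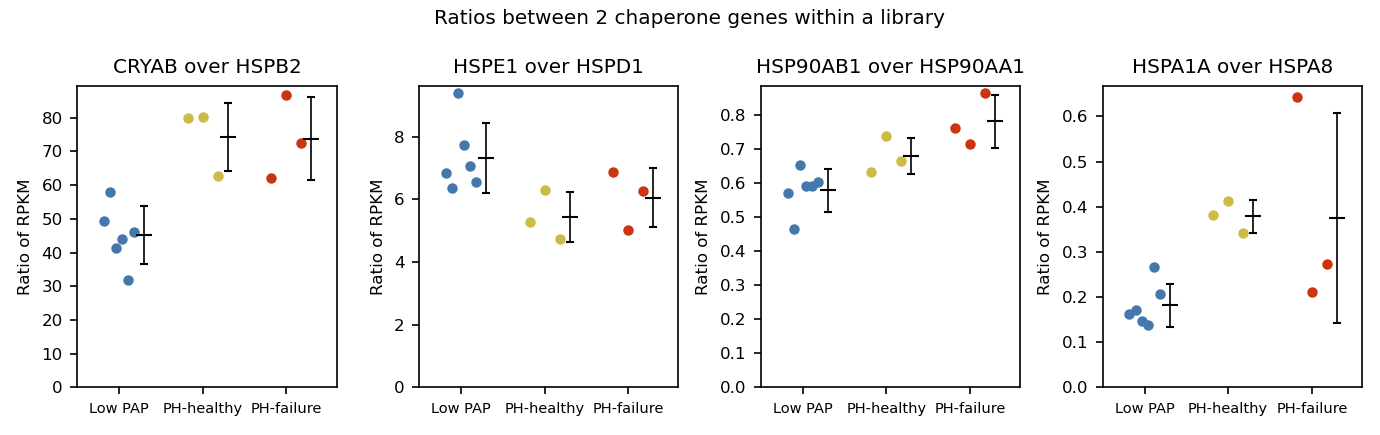
Ratio of RPKM between 2 chaperone genes within each library (points), with group mean and SD (black); axes start at 0. CRYAB over HSPB2 and HSPA1A over HSPA8 show where PH and low-PAP libraries part or overlap: the first is 32.0 to 58.1 in low PAP and at least 62.1 in PH, and the second 0.139 to 0.267 in low PAP, 0.341 to 0.414 in PH-healthy and 0.211 to 0.642 in PH-failure.

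Of the transcription factors, HSF1, the master regulator of the heat shock response, rose in PH-failure. It ranged from 19.4 to 27.1 RPKM in low PAP (median 23.5), and was 27.1, 26.4 and 34.2 RPKM in PH-healthy and 31.0, 29.4 and 32.9 RPKM in PH-failure. PH-failure lay above low PAP, and PH-healthy overlapped it. HSF1 had a log2 change of 0.40 ± 0.12 in PH-failure (adjusted p = 0.023) and 0.31 ± 0.12 in PH-healthy (adjusted p = 0.0584). The former was lost without PH-failure 3 (adjusted p = 0.0858), after quantile normalization (0.0977) and with median-ratio scaling (0.363), and the latter passed without low PAP 5 (0.0464). HSF2 was at 11.96 ± 2.02, 13.7 ± 0.280 and 13.3 ± 2.56 RPKM in low PAP, PH-healthy and PH-failure, and was not called.

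No chaperone gene was called between failing and non-failing hypertensive hearts. With limma, 0 of 38 members were called between PH-failure and PH-healthy, 0 had an unadjusted p under 0.05, and 0 were called by limma-voom on the recovered reads. Of all 11374 tested genes, 1 was called (0.00879%) and 308 had an unadjusted p under 0.05. The members' log2 differences (PH-failure minus PH-healthy) ran from -0.39 (DNAJB5) to 0.54 (FKBP5). The 95% interval was -1.13 to 0.37 for HSPB6, -0.53 to 0.32 for HSPB7, -0.37 to 0.36 for CRYAB and -0.18 to 0.50 for HSP90AB1. With 3 animals a side these intervals still hold sizeable differences, so a lack of calls does not show equal levels. The difference was -0.30 for CHORDC1 (interval -0.63 to 0.02) and 0.25 for HSPE1 (interval -0.10 to 0.59), neither of them called. Their libraries did not overlap between the PH groups. With 3 animals a side this can easily arise by chance, and its share over all tested genes was not counted.

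The authors' deposited table compares high with low PAP and gives a false discovery rate under 0.05 for 8 of the 39 members, against 1016 of all 24616 genes. These shares are not like for like. Of the 24616 genes, 17284 were above 0 in any library, whereas 38 of the 39 members passed the filter on low values. In the authors' deposited table the fold change is 4.98 for HSPB6, 2.58 for HSPB7, 1.94 for DNAJA4, 1.69 for HSPB1, 1.68 for CRYAB, 1.67 for HSP90AB1 and 1.65 for HSPA4. FKBP4 is the one of the 8 that is lower, at -1.17 in the authors' deposited table. All 8 were called here in PH-failure in the same direction. Both results draw at least in part on the same libraries, so they are not independent.

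Beside the members, 81 other tested genes of the folding machinery, of heat induction and of glucocorticoid response were read. With the same test, 4 were higher and 6 lower in PH-failure, and 7 were higher and 11 lower in PH-healthy, with a median log2 change of 0.00 and -0.04. The background over the whole table was 28.0% up and 5.79% down for PH-failure, and 26.6% up and 8.15% down for PH-healthy. After quantile normalization, 3 of the 81 were higher and 17 lower in PH-failure, and 4 higher and 16 lower in PH-healthy. With median-ratio scaling these counts were 2 and 27, and 3 and 23. Whether they differ from the members was not tested. Prefoldin is the complex that carries new actin and tubulin chains to the chaperonin TRiC. Of its 6 subunits, 5 fell in PH-healthy (PFDN2, PFDN4, PFDN5, PFDN6 and VBP1) and 2 in PH-failure (PFDN2 and PFDN6), also after quantile normalization. All 5 calls in PH-healthy were lost without PH-healthy 1, and those of PFDN2, PFDN4 and VBP1 also without PH-healthy 3 (adjusted p = 0.0503 to 0.102). Both calls in PH-failure were lost without PH-failure 2, PH-failure 3, PH-healthy 1 or low PAP 1, 3, 4 or 5, and that of PFDN6 also without PH-healthy 2 or 3 (0.0503 to 0.155). Without low PAP 6, PFDN4, PFDN5 and VBP1 passed in PH-failure too (0.0177 to 0.0271). With median-ratio scaling, 5 of the 6 prefoldin subunits were lower in each PH group. In the main setting the prefoldin median log2 change was -0.45 in PH-healthy and -0.33 in PH-failure. Of the 8 TRiC subunits, 0 were called by limma in either comparison (1 lower in each with median-ratio scaling), with log2 changes between -0.17 and 0.26.

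The mitochondrial J-domain protein DNAJC19 fell from 176 ± 15.5 RPKM in low PAP to 102 ± 1.92 in PH-healthy (log2 change -0.77, adjusted p = 0.00182) and 117 ± 24.1 in PH-failure (-0.60, adjusted p = 0.00722). UBB, a polyubiquitin gene that heat induces, fell from 1015 ± 102 RPKM to 703 ± 75.7 (adjusted p = 0.00771; 0.232 after quantile normalization) and 702 ± 63.8 (adjusted p = 0.00915). PTGES3, the HSP90 co-chaperone p23, fell from 156 ± 8.41 RPKM to 118 ± 5.65 (adjusted p = 0.0077) and 127 ± 10.2 (adjusted p = 0.0295, and 0.0529 to 0.105 without PH-failure 1 or 2 or low PAP 1, 3 or 4). CLPB, a mitochondrial disaggregase, rose from 2.70 ± 0.617 RPKM to 5.10 ± 0.608 (adjusted p = 0.00607) and 4.38 ± 0.961 (adjusted p = 0.0231; 0.28 after quantile normalization, and 0.0639 to 0.106 without PH-failure 2 or 3). DNAJC5, a J-domain protein of secretory vesicles, rose from 5.26 ± 0.988 RPKM to 8.58 ± 0.638 (adjusted p = 0.0093) and 8.85 ± 1.79 (adjusted p = 0.00904; 0.0517 without PH-failure 3). BAG4 rose from 1.62 ± 0.228 to 2.79 ± 0.442 RPKM in PH-failure (limma adjusted p = 0.00565, and 0.0838 after quantile normalization). In PH-healthy it was 2.34 ± 0.0212 RPKM (0.0265, and 0.665 after quantile normalization). That call was lost without any 1 PH-healthy library or low PAP 3 or 4 (0.0522 to 0.0816). SERPINH1, the collagen chaperone HSP47, rose from 36.8 ± 4.81 to 57.3 ± 16.7 RPKM in PH-failure (adjusted p = 0.0257). Without PH-failure 3 or low PAP 4 this was 0.0511 to 0.138. In PH-healthy SERPINH1 was at 53.1 ± 10.5 RPKM (0.0443, and 0.0609 after quantile normalization). That call was lost without PH-healthy 1 or 2 or low PAP 1, 3, 4 or 5 (0.0532 to 0.171).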

How the data were processed

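The data are 12 right ventricle libraries, from RNA extracted with Trizol and prepared by standard Illumina methods per the labels' protocols. The authors deposited RPKM per gene and library, per the file headers. They also deposited mean RPKM at low and high PAP, a fold change (a signed score), p-value and false discovery rate. With 6 libraries per pressure group used here, those means are too small in 9007 of 16825 genes at low PAP and 12285 of 16936 at high PAP to be averages over 6, and in 0 genes to be averages over 7. The authors' fold changes and false discovery rates may therefore include libraries not analysed here. No source used here names the aligner, counting, strand or genome build, and positions are those of the table.

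Reads were recovered from the RPKM steps, and all 11374 tested genes (1 RPKM or more in 3 or more libraries) came out whole within 0.05 reads. These reads cover counting error only. limma 3.58.1 (R 4.3.3, statmod 1.5.0; trend, robust) was fitted to log2(RPKM + 1) in 1 model of 3 groups, with Benjamini-Hochberg adjustment over all tested genes at 0.05. The log2 changes are on that scale, which understates low genes, while the fold rises given for members are ratios of mean RPKM. In simulated data, 2-fold changes were recovered in 80% of 100 genes for PH-failure against low PAP, in 77% for PH-healthy against low PAP and in 71% between the PH groups, each run on 11374 genes. Each run changed 100 genes 2-fold and 100 genes 4-fold, with equal numbers raised and lowered. In the data 3848 and 3951 genes were called against low PAP, mostly higher, so these rates may not carry over. Alternatives were other scalings, pseudocounts and filters, library series as a term, a replicate block, limma-voom and leaving out each library.

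Members and lists were chosen with earlier results of these data known. Named genes are all called members up to 14 per comparison, 9 set genes (such as HSPA1A and FKBP5) and up to 6 called genes of smallest p from the other lists. Other members were named after their values were seen. Plots used matplotlib 3.10.9, with pandas 2.3.3 and numpy 2.4.6 in Python 3.11.15. No sequences were used here.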

Additional observations from a re-analysis of the deposited data

How the results depend on the processing

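Over 20 alternatives, 12 of them leaving out 1 library, the 20 named members gave 800 values for the comparisons with low PAP. Of these, 685 kept their side of the threshold and direction, 109 lost the call, 6 gained one and 0 changed direction where called, while 4 values of uncalled genes changed sign. HSPB6, HSPB7, HSPA4, HSP90AB1 and DNAJA4 were called in both PH groups under all 20. CRYAB was lost only under the replicate block in PH-failure (adjusted p = 0.0517). The count of called members was 13 (8 to 15 leaving out 1 library, lowest without PH-failure 3) in PH-failure and 16 (8 to 18, lowest without PH-healthy 2) in PH-healthy. It was 0 throughout between the PH groups. Genes called were 3848 (1540 to 4669), 3951 (1890 to 4643) and 1 (0 to 4). Quantile normalization left 2551 genes in PH-failure. Replicate numbers name different animals, and the labels give no pairing between groups. Deviations of same-numbered libraries from their group means had correlations of -0.26 to 0.19. With no value known for paired animals, these cannot exclude a pairing. The replicate block, over replicates 1 to 3, called 5 members and 1383 genes in PH-failure, 7 and 1829 in PH-healthy, and 0 genes between PH groups. The same 9 libraries without the block gave 8 and 2348, 10 and 2592, and 2 genes. Genes called between PH groups were 0 with library series as a term and with limma-voom. The cause of these changes was not tested. The edgeR fit was not run, since the table holds RPKM. limma-voom on recovered reads and the 9-library fit without the block were chosen after seeing the data. Depth limits HSPA12A (27 to 74 reads) and HSPA4L (3 to 17 reads).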
